A study of Homo sapiens with 3 samples.

Results

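RNA recovered with CTCF from U2OS cells was examined here for the cadherin and protocadherin genes, which encode calcium-dependent adhesion proteins of the cell surface. Members considered here were protein-coding genes of the deposited table whose Ensembl identifier maps to a symbol made of CDH and a number, or to a symbol that starts with PCDH. There were 58 of them among 12220 listed protein-coding genes and 17201 listed genes in all. Of these 58, 19 are solitary genes spread over 9 chromosomes, and 39 belong to the PCDHA, PCDHB and PCDHG clusters of chromosome 5. The clustered genes are described apart, since the PCDHA and PCDHG intervals overlap within their clusters.

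U2OS is an established human osteosarcoma cell line, and CTCF is a zinc-finger protein that binds DNA and organises chromatin loops. In PAR-CLIP, the cells incorporate 4-thiouridine into RNA, ultraviolet light links that RNA to bound protein, and the RNA precipitated with the protein is sequenced. All cells received 400 µM 4-thiouridine for 16 to 24 h and 400 mJ/cm2 of light at 365 nm, per the labels' protocols. The series has 3 samples, of which 2 are biological replicates made with different lots of an anti-CTCF antibody and 1 is their merge. The only values analysed here (1 sample) are those of the merge, so no replicate error, control precipitation or condition stands beside any value, and no test was made.

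Cadherins of the classical types join neighbouring cells through repeated extracellular domains and attach to the cytoskeleton through catenins. Type I and type II classical cadherins differ in the surface by which their outermost domains pair. Protocadherins are a larger branch without the catenin-binding tail, and delta protocadherins are its best studied solitary genes. The clustered protocadherins are a textbook case of control by CTCF. In the alpha and gamma clusters each gene has its own promoter and a long variable first exon, which is spliced to constant exons shared by the whole cluster. CTCF binds at many of these promoters and at distant enhancers, and the loops between them accompany the choice of promoter in neurons. Beta genes have a single exon and no shared exons.

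The promoter elements of the clustered genes are shown first, because they are the place where CTCF is known to meet these genes on DNA. RefSeq promoter windows (GRCh38.p14, 250 bases before to 50 bases after a start) were available for 49 of the 58 members. In each line below, the capitals mark the first CGCT found within 90 bases before the annotated start, the core of the conserved element of these promoters. Each stretch has 37 bases and reads 5′ to 3′ on the plus strand of chromosome 5. Genes were taken for high or low counts in their own stretch of the cluster and, in the beta cluster, for being listed.
PCDHA6: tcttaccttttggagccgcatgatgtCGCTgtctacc
PCDHA7: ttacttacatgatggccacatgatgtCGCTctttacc
PCDHA11: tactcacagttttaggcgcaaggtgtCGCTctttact
PCDHA12: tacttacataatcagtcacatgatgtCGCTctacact
PCDHB2: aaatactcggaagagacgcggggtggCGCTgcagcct
PCDHB5: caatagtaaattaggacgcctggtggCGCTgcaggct
PCDHB10: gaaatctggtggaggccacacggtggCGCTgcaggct
PCDHB12: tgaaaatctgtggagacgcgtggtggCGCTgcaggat
PCDHB14: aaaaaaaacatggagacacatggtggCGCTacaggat
PCDHGA3: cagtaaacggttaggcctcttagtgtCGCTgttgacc
PCDHGB4: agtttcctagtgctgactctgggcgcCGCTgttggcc
PCDHGB6: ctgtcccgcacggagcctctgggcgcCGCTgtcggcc
PCDHGC3: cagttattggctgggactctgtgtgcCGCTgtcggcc

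On these 13 stretches the core began between 11 and 81 bases before the start. The 4 bases alone say little, since CGCT was found on either strand in 70.0% of all 35116 promoter windows. The longer word GGTGGCGCT was found in 13 of 14 PCDHB windows and in 0.501% of all windows. GATGTCGCT was found in 9 of 13 PCDHA windows and in 0.105% of all. In the PCDHG windows 14 of 25 held CGCTGTT, against 2.26% of all. These words were chosen after the sequences had been read, both strands were searched, and all 3 contain CGCT. None was found in the windows of annotated solitary genes, listed or not (0 of 36 windows from 22 genes, for each of the 3). The cluster windows likewise include unlisted genes, and the 25 PCDHG windows come from 20 genes. The beta word was in all 5 windows of listed PCDHB genes and in 8 of 9 windows of those not listed. A match is a description of the sequence and does not show binding.

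Whether a gene is listed is the coarsest readout. The table starts at 6 counts, whose exact 95% Poisson interval is 2.20 to 13.1. Of the 35 solitary genes annotated as protein-coding in RefSeq and considered here, 19 were listed, or 54.3% (95% Clopper-Pearson interval 36.7 to 71.2%). Among 19120 annotated protein-coding genes with an identifier, 60.6% were listed. At 10 counts or more there were 14 of 35 solitary genes, 40.0%, against 54.2% of the annotated genes. Both background shares lie within the intervals of the solitary shares (23.9 to 57.9% for the second). Intervals on shares of genes treat genes as independent draws. A gene called not listed fell short of 6 counts, was no feature of the authors' counting, or stands under 1 of the 247 protein-coding identifiers without a symbol.

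The counts of the solitary members were very uneven. They summed to 2518, 0.190% of the summed count of the table, and CDH13 and CDH4 held 66.9% of that sum (65.0 to 68.7%). The highest 5 held 87.5% (86.2 to 88.8%). The median of the 19 genes was 22 counts, against 43 for all listed protein-coding genes. With 5 of 19 genes (26.3%) at 100 counts or more, the share was that of the background, 26.1%. RNA levels of these cells were not analysed here. More RNA per cell, more cells with the RNA and more RNA bound per molecule cannot be told apart in such counts.

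**Figure D1:**
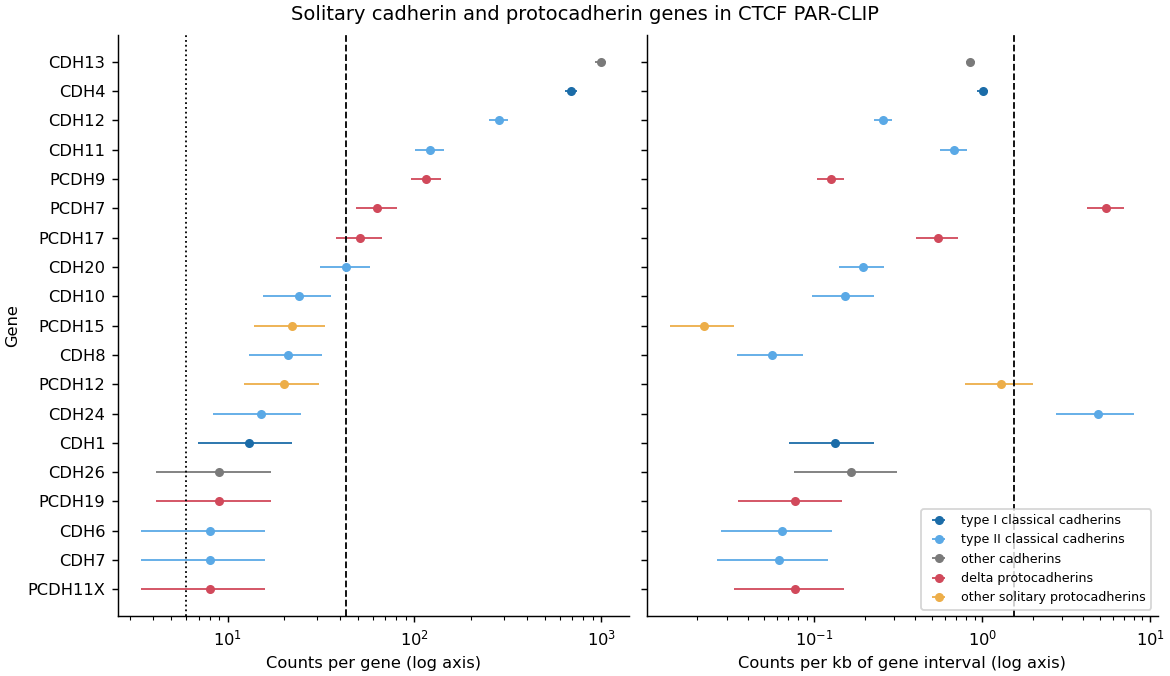
Counts per gene (left, log axis) and counts per kb of gene interval (right, log axis) for the 19 solitary cadherin and protocadherin genes in the merged sample. Points are values and bars are exact 95% Poisson intervals (counting error only), the dotted line is the lowest count in the table (6), and dashed lines are the medians of all listed protein-coding genes (43 counts and 1.54 per kb). CDH13 and CDH4 lead by count, while PCDH7 and CDH24 lead per kb.

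Of the type I classical cadherins considered here, strong adhesion proteins of cell junctions, 2 of 4 were listed, beside 60.6% of annotated protein-coding genes. CDH4, known as retinal or R-cadherin, had 692 counts (95% Poisson interval 641 to 746) on chromosome 20 (hg19, 59827482 to 60515673). Its interval of 688 kb overlaps no other listed gene (0). CDH1, the E-cadherin that holds epithelial sheets together, had 13 counts (6.92 to 22.2) over 98.3 kb of chromosome 16. An antisense gene inside the CDH1 interval had 6 counts, and where strand is ignored these are among the 13. Per kb of interval, CDH4 had 1.01 counts (0.932 to 1.08) and CDH1 had 0.132 (0.0704 to 0.226), so the ranges do not overlap. CDH3, for placental cadherin, and CDH15, for the cadherin of muscle, were not listed.

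Type II classical cadherins are mostly known from neural, mesenchymal and endothelial cells. Of the type II genes 8 of 13 were listed, beside 60.6% of annotated protein-coding genes, with a median of 22.5 counts. CDH12, a brain cadherin, led with 283 counts (251 to 318) over 1103 kb of chromosome 5 (hg19, 21750782 to 22853450). Inside that interval lies HSPD1P1, a pseudogene of a mitochondrial chaperonin gene, with 64 counts in 1.73 kb. Where strand is ignored, these 64 are among the CDH12 counts, make up 22.6% of them and leave 219. Per kb, HSPD1P1 had 37.1 counts and CDH12 as a whole 0.257.

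CDH11, the cadherin of osteoblasts and mesenchymal cells, had 121 counts (100.4 to 145) over 178 kb of chromosome 16 (hg19, 64977656 to 65155939). No other listed gene overlaps it (0). Per kb it had 0.679 counts (0.563 to 0.811), which is more than CDH12 and less than CDH4, with no overlap of the intervals. CDH20 followed with 43 counts, CDH10 with 24, CDH8 with 21 and CDH24 with 15. The Poisson intervals of CDH10 (15.4 to 35.7), CDH8 (13.0 to 32.1) and CDH24 (8.40 to 24.7) overlap, so their order is not resolved. CDH6, known from kidney, and CDH7 had 8 counts each, close to the floor. CDH6 shares 73.9 kb with an antisense gene that had 9 counts. CDH5, the VE-cadherin of endothelial junctions, and CDH9, CDH18, CDH19 and CDH22 were not listed.

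Length changes this order. CDH24 had its 15 counts in an interval of only 3.07 kb, which gives 4.89 counts per kb (2.74 to 8.06). CDH8 had its 21 counts over 374 kb, or 0.0561 per kb (0.0347 to 0.0858). CDH20 had 0.194 per kb, CDH10 0.152, CDH6 0.0642 and CDH7 0.0612. Over the intervals given, which need not span whole genes, CDH24 is thus the densest listed type II gene. CDH6, CDH7 and CDH8 are the thinnest, and their Poisson intervals overlap.

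Among the remaining cadherins, CDH13 had the highest count of all members. CDH13 encodes T-cadherin, which is held in the membrane by a lipid anchor and lacks the cytoplasmic tail that binds catenins. It had 992 counts (931 to 1056) over 1170 kb of chromosome 16 (hg19, 82660408 to 83830204), or 0.848 per kb (0.796 to 0.903). A sense intronic gene with 54 counts and antisense genes with 28 and 7 counts lie inside it. Where strand is ignored, their counts are among the 992, and 903 are left without them. Per kb these inner genes had 0.959, 0.755 and 0.907 counts, which is close to the value of the whole interval. CDH26 had 9 counts over 54.7 kb. CDH16 of kidney, CDH17 of liver and intestine and CDH23, which builds the tip link of hair cells in the inner ear, were not listed.

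Delta protocadherins had 5 of 10 genes listed, beside 60.6% of annotated protein-coding genes, with a median of 51 counts. PCDH9 had 116 counts (95.9 to 139) over 926 kb of chromosome 13 (hg19, 66876969 to 67802707). PCDH9-AS2, an antisense gene inside that interval, had 22 counts, and where strand is ignored these are among the 116. PCDH7 had 63 counts (48.4 to 80.6) in an interval of 11.6 kb on chromosome 4 (hg19, 30722037 to 30733590). This was the highest density among solitary members, 5.45 counts per kb (4.19 to 6.98), while PCDH9 had 0.125 (0.104 to 0.150). The intervals of the table need not span a whole gene, and for PCDH7 the count covers only the stretch given.

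PCDH17 had 51 counts (38.0 to 67.1) over 93.8 kb of chromosome 13, and 0.544 per kb. PCDH19, a gene of the X chromosome known from an inherited epilepsy, had 9 counts, and PCDH11X had 8. Both were near the floor and their Poisson intervals overlap. PCDH1, PCDH8, PCDH10 and PCDH18 were not listed.

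The other solitary protocadherins had 2 of 3 genes listed, beside 60.6% of annotated protein-coding genes. PCDH15, the tip-link partner of CDH23, had 22 counts over 999 kb of chromosome 10. Its 0.0220 counts per kb (0.0138 to 0.0334) was the lowest density of the 19 genes. PCDH12, known from blood vessels, had 20 counts over 15.5 kb and 1.29 per kb. Its end overlaps RNF14, which had 53 counts, by 0.734 kb. PCDH20 was not listed.

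Since counts rise with interval length, each gene was also ranked within its length group, 1 of 50 that hold about 244 listed protein-coding genes each. The group of the longest genes is broad and holds CDH13, CDH4, CDH12, PCDH9 and PCDH15 together. A value of 50 is the middle of those genes. The median over the 19 solitary members was the 23.5th percentile. Its interval, taken from the ranks of the genes, was 6.17 to 53.5 and includes 50. With all listed genes as background the median was 32.0. Of the 19, 6 (31.6%, 12.6 to 56.6%) lay above the median of genes of similar length, against 49.5% of all listed protein-coding genes. CDH13 was at the 94.7th percentile and CDH4 at the 90.6th. PCDH7 was at the 80.0th, CDH12 at the 71.9th, CDH11 at the 53.5th and PCDH9 at the 50.8th. These 6 are the genes above the median of similar length. CDH24 was at the 45.7th percentile, PCDH12 at the 37.5th and PCDH17 at the 30.7th.

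The lowest were CDH1 at the 9.47th percentile, CDH26 at the 6.17th, PCDH19 at the 5.53rd, CDH6 at the 4.30th, CDH7 at the 3.50th and PCDH11X at the 2.26th. The solitary genes therefore reached from close to the top to close to the bottom of their length groups. Counted per kb, 4 of 19 (21.1%) had 1 count or more, against 64.1% of listed protein-coding genes. Their intervals were long, with a median of 131 kb against 30.2 kb for all listed protein-coding genes. Spearman's rho between count and length was 0.541 over the 19 genes and 0.434 over the 12220. It was −0.321 and −0.562 between counts per kb and length. These are descriptions across genes of 1 merged library, and genes are not replicates.

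Genes of nearly the same length give a sense of the range. ROBO1, whose interval of 1171 kb was closest to that of CDH13, had 1209 counts, and ERBB4 at 1163 kb had 15. Near CDH4, FRMD4A had 380 counts over 687 kb and THSD4 had 49 over 686 kb. Near CDH12, DPP6 had 23 counts and NRG3 had 1086. ARID2 with 156 and CTNNBL1 with 290 lay closest to CDH11 in length, and PDE4D with 66 and CTNND2 with 122 lay closest to PCDH9. CDH4 was thus above both of its neighbours in length, CDH13, CDH12 and PCDH9 lay between theirs, and CDH11 was below both.

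**Figure D2:**
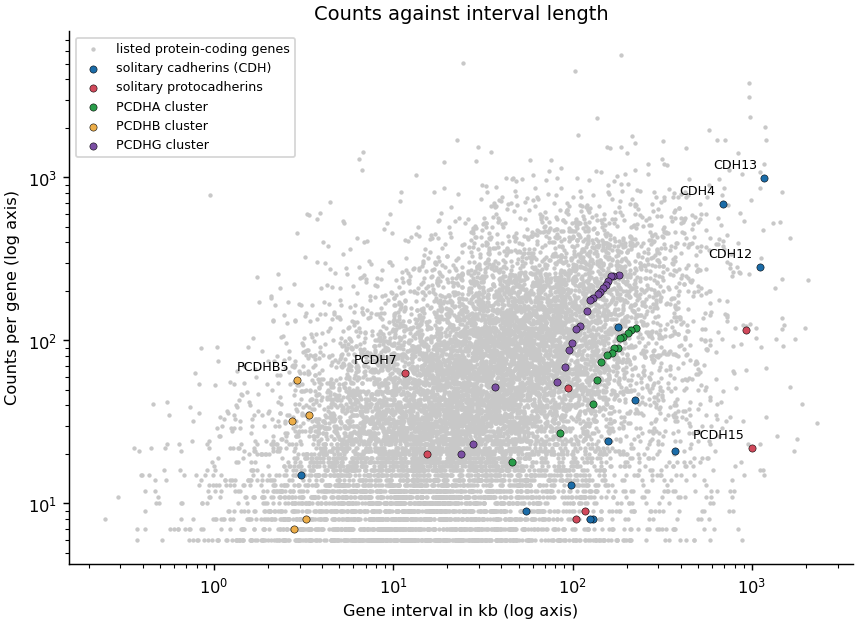
Counts per gene against gene interval in kb, both on log axes, in the merged sample. Grey points are the 12220 listed protein-coding genes and coloured points are the 58 cadherin and protocadherin genes by group. The PCDHA and PCDHG genes form 2 rising chains because each interval lies inside the next, and PCDH15 (22 counts over 999 kb) lies far below CDH13 (992 counts over 1170 kb).

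Several chromosomes carry more than 1 solitary gene, and listed and unlisted genes were mixed on most of them. Over all annotated protein-coding genes 60.6% were listed. On chromosome 16 the listed CDH1, CDH8, CDH11 and CDH13 share the chromosome with CDH3, CDH5, CDH15 and CDH16, which were not listed (4 of 8). On chromosome 5, 4 of 7 solitary genes were listed, namely CDH6, CDH10, CDH12 and PCDH12. On chromosome 13, PCDH9 and PCDH17 were listed and PCDH8 and PCDH20 were not. On chromosome 18, CDH7 and CDH20 were listed and CDH19 was not.

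The clustered protocadherins occupy adjacent stretches of chromosome 5 in the order alpha, beta, gamma. Of 53 annotated genes 39 were listed, or 73.6%, beside 60.6% of annotated protein-coding genes. The exact interval (59.7 to 84.7%) treats genes as independent draws, but these are not 39 separate observations. In the PCDHA and PCDHG clusters each interval runs from a gene's own first exon to the common end of its cluster, so that most intervals lie inside others. There were 239 such nested pairs, and an inner count above the outer count occurred in 0 pairs. Counts fell at each step along the cluster or stayed equal, from PCDHA1 with 120 to PCDHAC2 with 18, and from PCDHGA1 with 252 to PCDHGC5 with 20. Counted once per set of overlapping intervals, the 39 genes form 7 sets, the alpha cluster, the gamma cluster and 5 beta genes.

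The nesting allows the counts to be placed. When intervals share an end, the difference between the counts of successive genes is the number that lies between their starts. That stretch holds the variable exon of the first gene and the sequence up to the next start, introns included. Genes whose interval ends more than 10 bases from the common end (PCDHA4, PCDHA5, PCDHA10 and PCDHGA11) were not used as borders. This reading assumes that counts were taken over whole intervals, which the 239 nested pairs do not contradict. Near-identical sequence in the clusters could divide reads between genes, and how the authors treated reads with several matches is not stated in the sources used here.

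In the alpha cluster (hg19, chromosome 5, 140165876 to 140391929) the 120 counts fell into 11 stretches. The stretch that starts at PCDHA11 had 17 counts in 6.37 kb, 2.67 per kb (1.56 to 4.27), that of PCDHA12 had 16 in 6.74 kb, 2.38 per kb (1.36 to 3.86), and that of PCDHA6 had 14 in 6.41 kb, 2.19 per kb (1.20 to 3.67). Between them, PCDHA8 had 6 counts in 6.14 kb and PCDHA7 had 0 in 6.94 kb. A count of 0 allows up to 3 counts by the usual one-sided rule, and the upper limit of its exact two-sided interval is 3.69 counts or 0.532 per kb. The latter is below the lower limits for PCDHA6, PCDHA11 and PCDHA12. PCDHA6, PCDHA7 and PCDHA12 all carry the word GATGTCGCT at the printed element, and PCDHA11 does not.

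The first 5 alpha stretches together had 0.589 counts per kb (0.412 to 0.815) and the next 5 had 0.556 (0.430 to 0.707). From PCDHA1 to PCDHA3, a stretch that also holds the unlisted PCDHA2 in RefSeq order, there were 4 counts in 14.9 kb. From PCDHA3 to PCDHA6, a stretch that also holds the starts of PCDHA4 and PCDHA5, there were 12 counts in 26.8 kb. The stretches of PCDHA13 (14 counts in 44.7 kb) and PCDHAC1 (9 in 39.3 kb) had 0.313 and 0.229 per kb. The last 46.1 kb, with the PCDHAC2 exon and the constant exons shared by the cluster, held 18 counts, 15.0% of the cluster (9.14 to 22.7%). At the very end, the 0.716 kb beyond the end of the PCDHA10 interval held at most 3 counts.

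In the gamma cluster (hg19, chromosome 5, 140710252 to 140892546) the 252 counts fell into 19 stretches. The densest was that of PCDHGB4 with 25 counts in 4.93 kb, 5.07 per kb (3.28 to 7.49). PCDHGB6 had 21 counts in 4.97 kb, 4.22 per kb (2.61 to 6.46), and PCDHGB1 had 16 in 4.94 kb, 3.24 per kb (1.85 to 5.26). PCDHGC3, of the C-type genes, which are used more uniformly across cells than the others, had 29 counts in 9.16 kb, 3.17 per kb (2.12 to 4.55). Larger sums stood in longer stretches, 31 counts from PCDHGB7 to PCDHGA12 in 12.8 kb and 28 from PCDHGA8 to PCDHGA9 in 10.1 kb.

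The gamma cluster alternates genes of an A and a B type, which differ in their protein sequence. Among stretches under 11 kb with no unused listed start inside, the 5 that begin at a PCDHGB gene held 78 counts in 22.9 kb, 3.41 per kb (2.70 to 4.26), with single values from 1.31 to 5.07. The 8 that begin at a PCDHGA gene held 83 counts in 51.0 kb, 1.63 per kb (1.30 to 2.02), with single values from 0.161 to 2.76. The pooled intervals do not overlap, but the single stretches do. This grouping was made after the values were seen, and the A-type stretches were longer, up to 10.1 kb against 4.97 kb. The longest, from PCDHGA8 to PCDHGA9, also holds the unlisted PCDHGB5 in RefSeq order.

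Other gamma stretches had few counts. From PCDHGA1 to PCDHGA3, a stretch that also holds the unlisted PCDHGA2 in RefSeq order, there were 4 counts in 13.4 kb (an upper limit of 0.767 per kb). From PCDHGA3 to PCDHGB1 there was 1 count in 6.23 kb (an upper limit of 0.895 per kb). The 45.4 kb between the starts of PCDHGA12 and PCDHGC3 held 4 counts, 0.0881 per kb (0.0240 to 0.226). PCDHGC4 had 3 counts in 4.07 kb, 0.738 per kb (0.152 to 2.16), a range that includes the 1.38 per kb of the whole cluster. The last 23.7 kb, with the PCDHGC5 exon and the constant exons, held 20 counts, 7.94% of the cluster (4.92 to 12.0%). Before the stretch with the shared exons lay 102 of 120 counts in alpha (85.0%, over 79.6% of the length) and 232 of 252 in gamma (92.1%, over 87.0% of the length). Per kb these are 0.567 before and 0.390 (0.231 to 0.617) within that stretch in alpha, and 1.46 and 0.843 (0.515 to 1.30) in gamma. The alpha interval includes the value before the stretch, so that difference is not resolved, and the gamma interval does not.

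**Figure D3:**
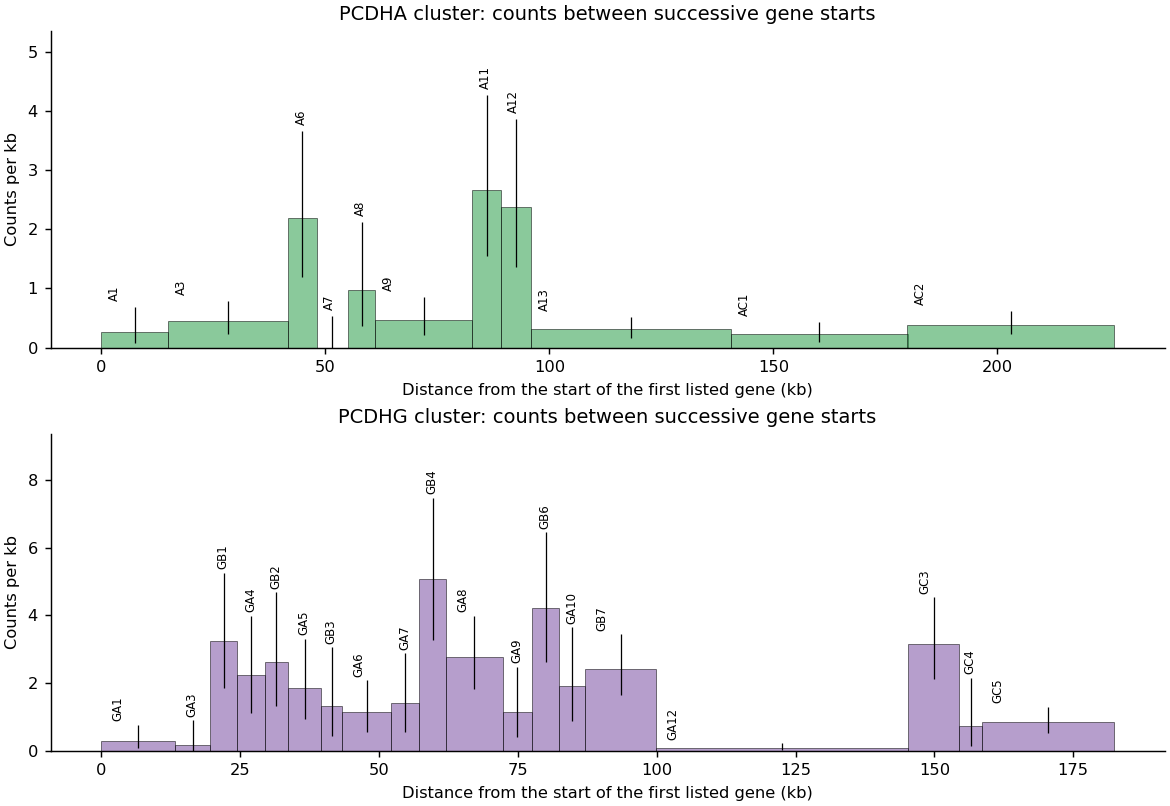
Counts per kb (bars) between the starts of successive genes in the PCDHA cluster (top) and the PCDHG cluster (bottom), against distance in kb from the start of the first listed gene of each cluster. Each bar carries the name of the gene at its left border without the letters PCDH, its width is the length of the stretch, and lines are exact 95% Poisson intervals (counting error only). The bars of A6, A11 and A12 stand above the rest of the alpha cluster, GB4 and GB6 are highest in gamma, and A7 (0 counts) and GA12 (4 counts in 45.4 kb) are lowest.

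Per kb, the gamma cluster as a whole held 1.38 counts (1.22 to 1.56) and the alpha cluster 0.531 (0.440 to 0.635), taken from their outermost intervals. The ranges do not overlap. For its length, PCDHGA1 was at the 77.8th percentile and PCDHA1 at the 46.5th. The annotated genes PCDHA2, PCDHGA2 and PCDHGB5 were not listed although genes on both sides of them in RefSeq order were, with 116 to 120 counts beside PCDHA2, 248 to 252 beside PCDHGA2 and 123 to 151 beside PCDHGB5. If their intervals also ran to the common end, their counts would lie in these ranges, so absence from the table is no measure of a low count here.

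The beta cluster gives separate values, since its single-exon genes do not overlap. Of 16 annotated PCDHB genes, 5 were listed (31.3%, with an exact upper limit of 58.7%), against 60.6% of annotated protein-coding genes. The identifier without a symbol in this cluster, given below, could belong to a gene counted here as not listed. PCDHB5 had 57 counts (43.2 to 73.9) in 2.90 kb (hg19, chromosome 5, 140514800 to 140517703), PCDHB12 had 35 (24.4 to 48.7) in 3.41 kb and PCDHB2 had 32 (21.9 to 45.2) in 2.74 kb. PCDHB10 had 8 counts and PCDHB14 had 7, near the floor. The 3 higher genes stood apart from the 2 lower ones, whose upper limits were 15.8 and 14.4.

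Per kb, PCDHB5, PCDHB2 and PCDHB12 were the densest members. PCDHB5 had 19.6 counts per kb (14.9 to 25.4), PCDHB2 had 11.7 (8.00 to 16.5) and PCDHB12 had 10.3 (7.16 to 14.3). PCDHB14 had 2.52 and PCDHB10 had 2.44. Their intervals hold exon only, while the alpha and gamma stretches also hold introns, so the densities of the clusters are not on the same footing. Against genes of similar length, PCDHB5 was at the 84.2nd percentile, PCDHB2 at the 78.4th and PCDHB12 at the 72.5th, with PCDHB10 at the 19.1st and PCDHB14 at the 11.3rd. All 5 listed genes carry the same GGTGGCGCT word at the printed element, the 3 with more counts and the 2 with fewer.

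Other listed genes lie between the clustered members. TAF7, a gene for a subunit of the transcription factor TFIID that sits between the beta and gamma clusters, had 254 counts in 2.27 kb, or 112 per kb. That is more than any stretch or gene of the clusters per kb. PCDHB18P, a pseudogene of the beta cluster, had 7 counts in 3.16 kb. A protein-coding interval of 4.81 kb in the beta cluster with 19 counts carries an identifier (ENSG00000196963) that has no symbol in the table of names, so it was not counted as a member.

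The partners of cadherins in the cell are given for comparison. Beside the shares in each list, 60.6% of annotated protein-coding genes were listed. Of the listed protein-coding genes, 49.5% lay above the median of similar length. In the list of catenins and junction partners, 14 of 15 genes were listed with a median of 123.5 counts and a median length percentile of 66.3, beside 23.5 for the solitary members, and 10 lay above the median of similar length. PTPRM, a receptor phosphatase at cell contacts, had 1422 counts, PKP4 of the p120 catenin family 685 and VCL for vinculin 645. Among the catenins themselves, named for their role, CTNND1 (p120 catenin) had 181, CTNNB1 (beta-catenin) 156 and CTNNA1 (alpha-catenin) 64. CTNNA3 was lowest with 25 counts over 1776 kb. Several intervals in the lists, those of PTPRM, PKP4 and VCL among them, overlap another listed gene, and shared counts were not taken off. Whether the lists differ from other genes was not tested.

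Desmosomal cadherins and plaque genes had 4 of 11 listed, beside 60.6% of annotated protein-coding genes. DSP for desmoplakin had 114 counts, DSG2 had 107, PKP2 had 53 and DSC2 had 21. Among other genes with cadherin repeats, 15 of 18 were listed with a median of 41 counts and a median length percentile of 37.5. FAT1 had 2309 counts, FAT4 273 and CELSR3 203, and CELSR1 was lowest with 6. Only 4 of these 15 lay above the median of similar length. Proteases known to cut cadherins had 10 of 11 listed with a median of 63.5, led by ADAM17 with 309, ADAM10 with 201 and MMP14 with 83, and with ADAM15 lowest at 7.

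Regulators of cadherin transcription had 6 of 12 genes listed, near the 60.6% of annotated protein-coding genes, with a median of 90. TCF4 had 272 counts, ZEB1, a repressor of E-cadherin, 206 and OVOL2 159. The interval of TCF4 overlaps 1 other listed gene, that of ZEB1 2 and that of OVOL2 3. Counts in the shared parts were not taken off. SNAI2 was lowest at 10. All 17 regulators of the clustered protocadherins were listed, with a median of 232 counts and a median length percentile of 84.6. Of these, 12 lay above the median of similar length, beside 49.5% of listed protein-coding genes. NIPBL, SMC1A and SMC3 of the cohesin system led with 831, 768 and 658 counts. SMCHD1, a repressor of the clusters, had 594 and SETDB1 was lowest at 19.

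**Figure D4:**
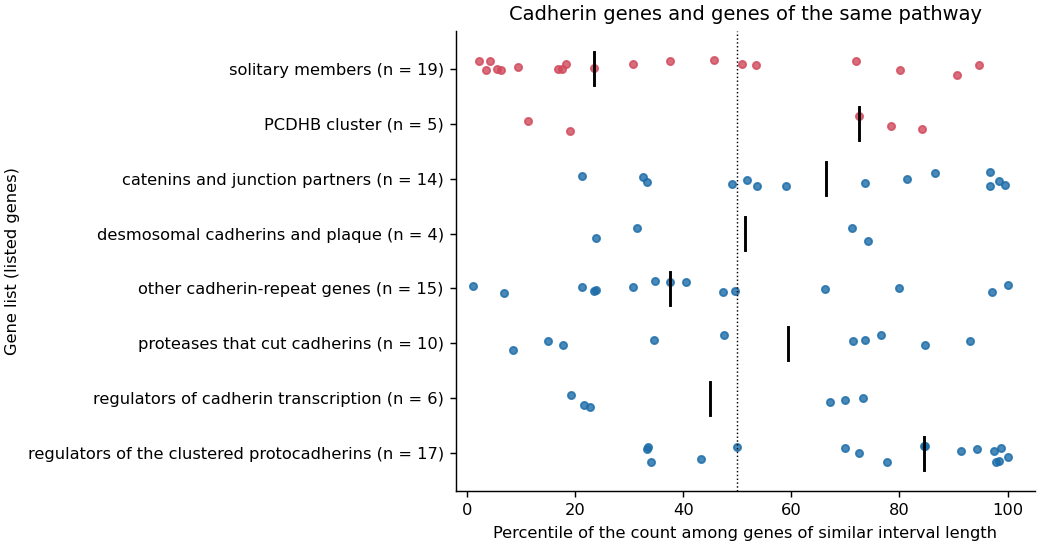
Percentile of each gene's count among listed protein-coding genes of similar interval length, for the 19 solitary members, the 5 listed PCDHB genes and 6 lists of genes of the same pathway. Points are genes, spread vertically at random for legibility, black lines are medians and the dotted line marks 50. The solitary members have a median of 23.5 (interval of the median 6.17 to 53.5) and the regulators of the clustered protocadherins one of 84.6.

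Markers of cell types gave the setting of these values. Of annotated protein-coding genes, 60.6% were listed. Of 10 mesenchymal and bone markers 7 were listed, and COL1A2, BGLAP and SPP1 were not. The 7 had a median of 260 counts and a median length percentile of 97.9. FN1 was highest at 1277 and ALPL, a phosphatase of bone, lowest at 8. Of 10 epithelial markers 2 were listed, KRT8 (206 counts) and KRT18 (146), whose intervals overlap, while EPCAM, GRHL2, ESRP1 and the others were not. Neuronal markers had 6 of 8 listed, from MAPT with 6 to SYT1 with 144 counts, at a median length percentile of 34.8. Endothelial markers had 3 of 8 listed, from VWF with 6 to ESAM with 10 counts, and blood markers had 0 of 6. CDH11 was at the 53.5th length percentile and CDH1 at the 9.47th. The part of these markers in the cadherin counts was not tested.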

How the data were processed

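The deposited file holds whole-number counts per Ensembl gene for the merge of 2 replicate libraries. The submitters' processing notes name hg19, Bowtie and bedtools. What each tool did, its version, and how strand and duplicates were treated is not stated in the labels. The authors listed no gene under 6 counts and did not scale the counts. The counts summed to 1322047, which is not the library size. Of 12220 protein-coding identifiers 11973 had a symbol and 247 had none. A cadherin gene that the symbol rule would take and a gene of the pathway lists are not reported here.

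Counts carry exact 95% Poisson intervals and shares exact 95% Clopper-Pearson intervals. Intervals on counts cover counting error only, those on shares of genes treat genes as independent draws, and PCR copies are not independent molecules. Interval length was end minus start. Length percentiles used 50 equal groups of listed protein-coding genes. Cluster stretches were differences of nested counts. Every listed solitary member is named, with the highest and lowest clustered genes, the stretches that stand out, and the leading and lowest genes of each list. Members, lists and rules were chosen with earlier results of these data known. Python 3.11.15, pandas 2.3.3, NumPy 2.4.6, SciPy 1.17.1 and matplotlib 3.10.9 were used. Alternatives are given in the closing section.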

Additional observations from a re-analysis of the deposited data

How the results depend on the processing

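Of 21 alternatives for the summary values, 15 left the value within its counting or median interval, or within 1.5 times for a number of genes. With members at 10 counts or more, the solitary median went from 22 to 47 counts and from 0.165 to 0.400 per kb, which stays within the wide interval of the median but is over 2 times as high. The exceptions follow. Counted once per set of overlapping intervals, the 39 clustered genes became 7 and their median count went from 90 to 35. Among members and genes that overlap no other listed gene, 3 of 12 solitary members lay above the median of similar length instead of 6 of 19. The members' share of the summed count, 0.509%, adds every nested PCDHA and PCDHG row, so shared stretches enter it many times. These rows summed to 1118 and 2951 counts, against 120 and 252 in the outermost intervals. The share is therefore inflated by repeats, and the solitary members alone held 0.190%. It went to 0.0710% per kb, with the nested rows still added, and to 0.162% without overlapping genes. Ranked per kb, the highest 5 solitary members held 83.8% of the summed counts per kb, and these are largely other genes. They were PCDH7, CDH24, PCDH12, CDH4 and CDH13, while the 87.5% belongs to CDH13, CDH4, CDH12, CDH11 and PCDH9. Of 38 alternatives for the length percentile of single members, 28 stayed within the range that the Poisson interval of the count allows. The settings were 20 length groups and all listed genes as background. Both put CDH13 (97.05 and 95.9), CDH4 (93.3 and 91.8) and CDH12 (73.85 and 73.9), the genes with the highest counts, above that range. All listed genes as background also put PCDH7, PCDH17, CDH20 and CDH10 above it. Leaving out CDH13 and CDH4, and taking off the counts of inner genes, were chosen after seeing the data, and gave 0.152 per kb (0.165 with them) and 87.0%. Leaving out a replicate was not run, since only the merge was used. No paired analysis was possible because no replicate library has values here. Depth limits the members near 6 counts (CDH6, CDH7, CDH26, PCDH11X, PCDH19, PCDHB10 and PCDHB14).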
